A study of Homo sapiens with 15 samples.

Results

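The genes described here are 39 genes of glucose uptake, glycolysis, lactate production and export, pyruvate dehydrogenase control and the hypoxia response. They were taken by symbol from the deposited count tables, where each stood on 1 of 20806 entries, and 38 of the 39 passed the filter on low counts. RNA was measured by poly(A) sequencing in 5 lines of C4-2 cells, which come from castration-resistant prostate cancer, with 3 libraries each. KO_S404A, KO_WT and KO_S47A are knockouts of PNPLA2, which encodes the triglyceride lipase ATGL, with an ATGL protein added back, the S404A mutant, the wild-type protein and the S47A mutant described as inactive in lipolysis. KO is the knockout with nothing added back, so the 4 lines share the knockout, and Scramble is the control line. All lines were plated with 5 mM glucose and 5% dialyzed serum, and no low-oxygen condition is named in the labels. Each genotype is 1 line, and the sources used here do not say whether it was a clone or a pool, nor which promoter drives the added proteins. Nothing in the labels says that the 3 libraries of a line came from separate cultures, so p-values cover no more than the spread among these libraries, which could be technical. In bulk RNA, fewer cells that express a gene and less RNA of it per cell cannot be told apart.

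Glycolysis turns glucose into pyruvate through a chain of cytosolic enzymes, from the hexokinases to pyruvate kinase. Lactate dehydrogenase then converts pyruvate and lactate into each other, monocarboxylate transporters carry lactate across the plasma membrane, and pyruvate dehydrogenase instead feeds pyruvate into the mitochondrial tricarboxylic acid cycle unless its kinases switch it off. Many of these genes are targets of the hypoxia-inducible factor HIF-1, whose alpha subunit is marked for destruction by oxygen-dependent prolyl hydroxylases. HIF-1 binds DNA at sites with the core ACGTG or GCGTG, and the glucose-responsive factors MondoA and ChREBP bind pairs of sites related to CACGTG.

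Upstream sequences are shown for the member that differed most between lines, SLC16A3, and for the members LDHA and TXNIP, which differed between the libraries numbered 3 and the others. Each is the 250 bases before 1 RefSeq start of the gene on GRCh38.p14, read on the gene's own strand. SLC16A3 had 5 such windows, and LDHA and TXNIP had 2 each. The window shown was chosen for the most matches to ACGTG, or to CACGAG in TXNIP, so the matches are partly a product of that choice. Capitals mark ACGTG on either strand in SLC16A3, CACGTG and the remaining ACGTG on either strand in LDHA, and CACGAG in TXNIP.
SLC16A3, chr17:82228792-82229041, plus strand: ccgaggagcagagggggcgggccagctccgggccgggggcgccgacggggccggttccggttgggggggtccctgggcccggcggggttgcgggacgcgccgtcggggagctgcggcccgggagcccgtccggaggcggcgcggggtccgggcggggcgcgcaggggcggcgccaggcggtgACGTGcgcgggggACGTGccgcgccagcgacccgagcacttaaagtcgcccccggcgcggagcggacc
LDHA, chr11:18394313-18394562, plus strand: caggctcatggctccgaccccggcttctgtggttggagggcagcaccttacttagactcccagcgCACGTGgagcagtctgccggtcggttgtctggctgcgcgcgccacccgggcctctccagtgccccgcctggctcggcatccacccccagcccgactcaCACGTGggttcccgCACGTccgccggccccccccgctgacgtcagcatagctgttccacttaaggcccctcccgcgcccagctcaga
TXNIP, chr1:145996580-145996829, minus strand: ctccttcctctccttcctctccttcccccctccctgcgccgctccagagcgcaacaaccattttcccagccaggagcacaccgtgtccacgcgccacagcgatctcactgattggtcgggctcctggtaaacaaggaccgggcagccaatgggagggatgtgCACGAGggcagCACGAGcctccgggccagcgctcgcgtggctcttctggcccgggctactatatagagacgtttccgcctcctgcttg
The SLC16A3 sequence holds ACGTG at 68 and 55 bases before the start. The LDHA sequence holds CACGTG, which contains ACGTG, at 185 and 87 bases, and a further ACGTG on the other strand at 73 bases. The TXNIP sequence holds CACGAG at 88 and 77 bases, a pair of such letters beside each other. Searched on both strands, ACGTG stood in 24 of the 64 windows of the 34 members that matched the RefSeq table (37.5%), against 18.5% of all 35116 windows. GCGTG stood in 35.9% of member windows and 32.2% of all windows, CACGTG in 17.2% and 6.34%, and CACGAG in 7.81% and 5.58%. Windows of 1 gene can overlap, and a match of letters is not a site of binding. VEGFA, SLC2A3, SLC16A1, BNIP3L and PFKFB2 were not among the matched members.

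Counts in genes totalled 40846694 to 64345775 per library. PNPLA2 followed the labels, with a log2 fold change of −2.11 (SE 0.20, edgeR adjusted p = 3.54e-05) in KO minus Scramble and of 5.19, 4.28 and 3.51 in KO_S404A, KO_WT and KO_S47A, each minus KO. All 10 luminal prostate markers reached 1 CPM (CPM being counts scaled to library size after TMM), as did 1 of 4 basal markers and 3 of 10 markers of stroma, endothelium and blood. The summed level of the 10 luminal markers was 5927 to 6789 CPM in KO_S404A, 7101 to 7462 in KO_WT, 6216 to 7823 in KO_S47A, 6122 to 6930 in KO and 8171 to 8688 in Scramble. The basal sum, nearly all of it KRT14 with KRT5 and TP63 at 0 counts throughout, was 1.38 to 1.78 CPM in KO_S404A, 1.87 to 2.45 in KO_WT, 2.11 to 2.20 in KO_S47A, 2.04 to 2.40 in KO and 4.25 to 4.63 in Scramble. The stroma, endothelium and blood sum lay between 24.7 and 45.6 CPM in the 15 libraries, nearly all of it COL1A1, VWF and CD68. Both the luminal and the basal sum moved with the comparisons against Scramble, and their part in the differences below was not tested. Within lines, 46.1% of 14246 tested genes were called between the libraries numbered 3 and those numbered 1 and 2. By the chi-square of their counts, the library numbered 3 was the farther one from both others in KO_WT, KO_S47A, KO and Scramble. In KO_S404A the library numbered 2 was nearer to 3 (139.6 per degree of freedom) than to 1 (148). The labels say nothing of what the numbers mean. Values with the replicate number as a block are given below where it changes a call and the libraries passed a check of pairing by number. The check asked for a correlation r of at least 0.1 between same-numbered libraries. It is a weak check, as the shift of the libraries numbered 3 also enters r. KO_S404A with KO or Scramble did not pass it, but the KO_S404A libraries are part of the block fit of every comparison.

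Per kilobase of gene length, averaged over the 15 libraries, GAPDH and ENO1 of lower glycolysis were the most abundant members. GAPDH, glyceraldehyde-3-phosphate dehydrogenase, averaged 1819 CPM per kilobase, the enolase ENO1 729.6, the lactate dehydrogenase B subunit LDHB 659.5 and the triosephosphate isomerase TPI1 649.8. The pyruvate kinase gene PKM, listed as PKM2, averaged 421 CPM per kilobase for all its isoforms together, LDHA 313, the phosphoglycerate kinase PGK1 299 and the aldolase ALDOA 257. Of the glucose transporters, SLC2A1 averaged 24.0 CPM per kilobase and SLC2A3 0.337. The hypoxia factor HIF1A averaged 30.9 CPM per kilobase, and of its known targets BNIP3 averaged 67.1 and VEGFA 19.2. Processed pseudogenes of GAPDH, LDHA, PGK1, ENO1 and other glycolytic genes are many, and the sources used here do not say how the counting treated reads they share.

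**Figure D1:**
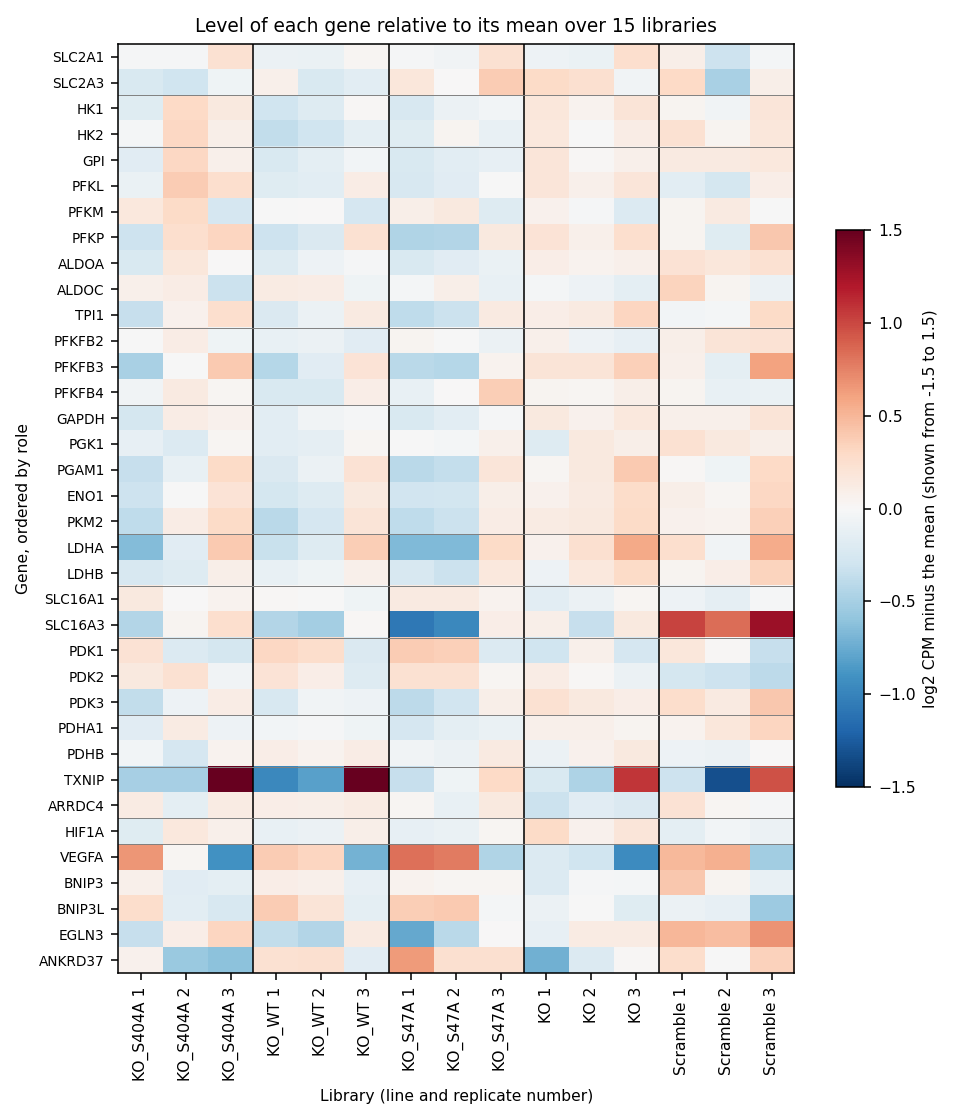
Level of 36 members in the 15 libraries, as log2 CPM minus the gene's mean, with genes in rows by role, libraries in columns by line, and colours cut at −1.5 and 1.5. PDK4, ADM and CA9, which had at most 23 counts in a library, are left out. SLC16A3 is highest in the 3 Scramble libraries, while TXNIP and VEGFA follow the libraries numbered 3.

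The 3 genes nearest to the limit of detection are given as counts. CA9, the carbonic anhydrase that is among the most strongly induced HIF-1 targets in many tumours, had 1 count in Scramble 1 and 0 in the other 14 libraries, where 0 counts allow up to 0.0450 to 0.0718 CPM by counting error alone. PDK4, a pyruvate dehydrogenase kinase induced by fasting and fatty acids, had 11, 15 and 1 counts in KO_S404A, 1, 3 and 1 in KO_WT, 6, 13 and 4 in KO_S47A, 11, 11 and 2 in KO, and 6, 7 and 1 in Scramble. The peptide hormone adrenomedullin, ADM, had 7, 23 and 4 counts in KO_S404A, 18, 5 and 7 in KO_WT, 8, 22 and 6 in KO_S47A, 17, 9 and 20 in KO, and 7, 1 and 12 in Scramble. The libraries of the lines overlapped for ADM, and no fold change is given for these 3 genes.

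The question of the first comparison was what loss of ATGL changed. In KO minus Scramble, edgeR's quasi-likelihood test called 0 of 38 members at an adjusted p under 0.05, against 2.69% of all 14246 genes. An unadjusted p under 0.05 was found for 6 of the 38 members and for 12.8% of all genes. DESeq2 called 1 member and 4.86% of all genes, the member being SLC16A3 (adjusted p = 0.00494). The 16 enzymes from the hexokinases to lactate dehydrogenase had a median log2 fold change of 0.01, against 0.02 over all genes, with 9 above 0 and 7 below. The CPM ranges of the 3 libraries did not overlap for 7 members (18.4%), and for 20.7% of all genes. With the replicate number as a block, 4 members were called (10.5%, against 8.29% of all genes), SLC16A3, EGLN3 and VEGFA lower and PDK2 higher in KO. The 3 comparisons of the added-back lines with Scramble use the same Scramble libraries, so their values stand beside those of KO and are no independent repeat.

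SLC16A3 encodes MCT4, the low-affinity monocarboxylate transporter known for exporting lactate from glycolytic cells. In libraries 1, 2 and 3 it stood at 12.9, 18.1 and 20.9 CPM in KO_S404A, 12.9, 12.4 and 17.7 in KO_WT, 8.38, 9.00 and 18.8 in KO_S47A, 18.6, 13.8 and 19.3 in KO, and 35.4, 31.4 and 42.6 in Scramble. All 12 libraries of the 4 lines with the knockout were below the 3 Scramble libraries, and those 4 lines overlapped with each other. The share of all genes that separate these 12 libraries from the 3 was not counted, here or for the members below. SLC16A3 fell in KO_WT minus Scramble, with a log2 fold change of −1.34 (SE 0.29, edgeR adjusted p = 0.0174), a level 0.394 times that of Scramble. It fell in KO_S47A minus Scramble, with a log2 fold change of −1.60 (SE 0.29, edgeR adjusted p = 0.00616), a level 0.330 times that of Scramble. In KO minus Scramble the log2 fold change was −1.08 (SE 0.28, edgeR adjusted p = 0.0647, and 0.000982 with the block), with a 95% interval of −1.69 to −0.47. In KO_S404A minus Scramble it was −1.08 (SE 0.28, edgeR adjusted p = 0.0574). The call in KO_S47A held without any 1 library, at adjusted p between 0.000301 and 0.0384, and was lost when KO_S47A and Scramble were fitted alone (0.0552). The call in KO_WT was lost without KO_WT 1 (0.0867), KO_WT 2 (0.0875), Scramble 1 (0.0511) or Scramble 3 (0.0765).

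SLC16A1 encodes MCT1, the higher-affinity transporter that carries lactate in either direction. It ran from 207 to 229 CPM in KO_S404A, 198 to 210.0 in KO_WT, 214 to 227 in KO_S47A, 185 to 212 in KO and 189 to 204 in Scramble. All libraries of KO_S404A and of KO_S47A were above those of Scramble, and those of KO_S47A were also above those of KO and KO_WT. The log2 fold change was 0.14 in KO_S404A, 0.06 in KO_WT, 0.18 in KO_S47A and 0.0050 in KO, each minus Scramble, and edgeR called it in 0 of the 10 comparisons between lines (adjusted p of at least 0.233). Per kilobase, SLC16A3 made up 9.55% ± 2.32 of the SLC16A1 and SLC16A3 level in KO_S404A, 8.49% ± 1.82 in KO_WT, 6.66% ± 3.21 in KO_S47A, 10.3% ± 1.62 in KO and 19.6% ± 1.84 in Scramble (SD, n = 3 each). The 12 libraries of the lines with the knockout ran from 4.65% to 11.7%, below the 3 Scramble libraries at 17.96% to 21.6%.

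PDK2 is 1 of 4 kinases that phosphorylate and switch off pyruvate dehydrogenase. It stood at 36.6, 38.6 and 31.8 CPM in KO_S404A, 38.2, 35.4 and 29.0 in KO_WT, 38.9, 38.8 and 33.8 in KO_S47A, 35.7, 33.4 and 31.1 in KO, and 27.5, 26.6 and 25.3 in Scramble. The 12 libraries with the knockout were above the 3 Scramble libraries, by the least in KO_WT 3. PDK2 rose in KO_S47A minus Scramble, with a log2 fold change of 0.49 (SE 0.11, edgeR adjusted p = 0.0285), a level 1.40 times that of Scramble. The log2 fold change was 0.43 in KO_S404A (edgeR adjusted p = 0.0578), 0.37 in KO_WT (0.104, and 0.00682 with the block) and 0.34 in KO (0.178, and 0.0126 with the block), each minus Scramble. The call in KO_S47A was kept without KO_S47A 3 (0.0196) and lost without any 1 of the other 5 libraries, at adjusted p between 0.0702 and 0.125.

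The other kinases and the enzyme itself were not called between lines without the block. PDK3 averaged 15.2 CPM in KO_S404A, 15.0 in KO_WT, 14.3 in KO_S47A, 18.2 in KO and 19.7 in Scramble. PDK1, a HIF-1 target, averaged 43.3, 49.96, 52.4, 41.1 and 44.2 CPM in the same order of lines. PDHA1, the subunit of pyruvate dehydrogenase that the kinases phosphorylate, had a log2 fold change of −0.35 in KO_S47A minus Scramble (edgeR adjusted p = 0.0534, and 0.0092 with the block). Its partner PDHB averaged between 109.2 CPM in KO_S404A and 122 CPM in KO_WT. Per kilobase, PDK2 made up 47.6% ± 2.99 of the 4 kinases in KO_S404A, 44.7% ± 1.57 in KO_WT, 46.5% ± 0.54 in KO_S47A, 44.5% ± 2.05 in KO and 37.1% ± 0.74 in Scramble (SD, n = 3 each).

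**Figure D2:**
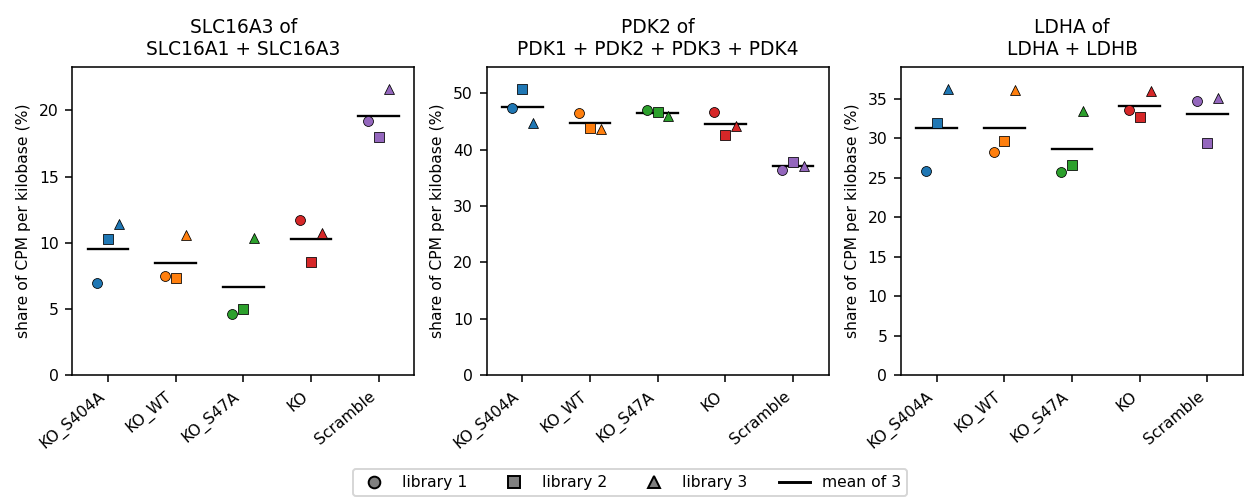
Share of SLC16A3 in the monocarboxylate transporter pair, of PDK2 in the 4 pyruvate dehydrogenase kinases and of LDHA in lactate dehydrogenase, in percent of CPM per kilobase, for each library (symbols by number) with the mean of 3 as a line. The Scramble libraries stand above the other lines for SLC16A3 and below them for PDK2, and the lines overlap for LDHA.

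HK2, the inducible hexokinase that starts glycolysis, was called in 1 comparison. It stood at 61.9, 78.0 and 67.1 CPM in KO_S404A, 48.7, 51.5 and 57.0 in KO_WT, 55.7, 64.7 and 58.5 in KO_S47A, 70.1, 62.8 and 68.1 in KO, and 73.7, 64.8 and 71.0 in Scramble. The 3 KO_WT libraries and KO_S47A 1 were the 4 lowest, the KO_S47A libraries ended just below the lowest of Scramble, and the KO_S404A and KO libraries overlapped with those of Scramble. HK2 fell in KO_WT minus Scramble, with a log2 fold change of −0.41 (SE 0.10, edgeR adjusted p = 0.0427), a level 0.750 times that of Scramble. This call was kept without KO_WT 3 (0.0421) and lost without any 1 of the other 5 libraries, at adjusted p between 0.0513 and 0.161. It was also lost when KO_WT and Scramble were fitted alone (0.0736) and from libraries 1 and 2 alone (0.0657). In KO_S404A minus KO_WT the 3 libraries of each line did not overlap, with a log2 fold change of 0.40 (SE 0.10), but edgeR's adjusted p was 0.547.

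ALDOA, the aldolase that splits fructose 1,6-bisphosphate, stood at 722, 947 and 849.99 CPM in KO_S404A, 737, 799.9 and 831 in KO_WT, 721, 753 and 785 in KO_S47A, 902, 872 and 887 in KO, and 979, 953 and 987 in Scramble. The 12 libraries with the knockout were below the 3 Scramble libraries, with KO_S404A 2 the nearest. ALDOA fell in KO_S47A minus Scramble, with a log2 fold change of −0.37 (SE 0.09, edgeR adjusted p = 0.0461), a level 0.774 times that of Scramble. The call was kept without KO_S47A 3 (0.0367) and lost without any 1 of the other 5 libraries, at adjusted p between 0.0899 and 0.174. The log2 fold change was −0.21 in KO_S404A, −0.30 in KO_WT and −0.13 in KO, each minus Scramble, with edgeR adjusted p of 0.296, 0.115 and 0.667 and, with the block, 0.033 in KO_WT and 0.381 in KO.

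EGLN3 encodes the prolyl hydroxylase PHD3, which acts on the alpha subunits of the hypoxia-inducible factors and is itself a HIF target. It stood at 6.20, 8.46 and 9.84 CPM in KO_S404A, 6.09, 5.84 and 8.64 in KO_WT, 4.63, 5.95 and 7.95 in KO_S47A, 7.23, 8.61 and 8.57 in KO, and 11.2, 10.9 and 12.6 in Scramble. All 12 libraries with the knockout were below the 3 Scramble libraries. EGLN3 fell in KO_S47A minus Scramble, with a log2 fold change of −0.90 (SE 0.22, edgeR adjusted p = 0.0332), a level 0.535 times that of Scramble. The call was kept without KO_S47A 3 (0.0108) and lost without any 1 of the other 5 libraries, at adjusted p between 0.0724 and 0.154. In KO_WT minus Scramble the log2 fold change was −0.75 (SE 0.22, edgeR adjusted p = 0.0801, and 0.00206 with the block). In KO_S404A and in KO, each minus Scramble, it was −0.50, with edgeR adjusted p of 0.271 and 0.325, and with the block it was 0.0302 in KO.

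**Figure D3:**
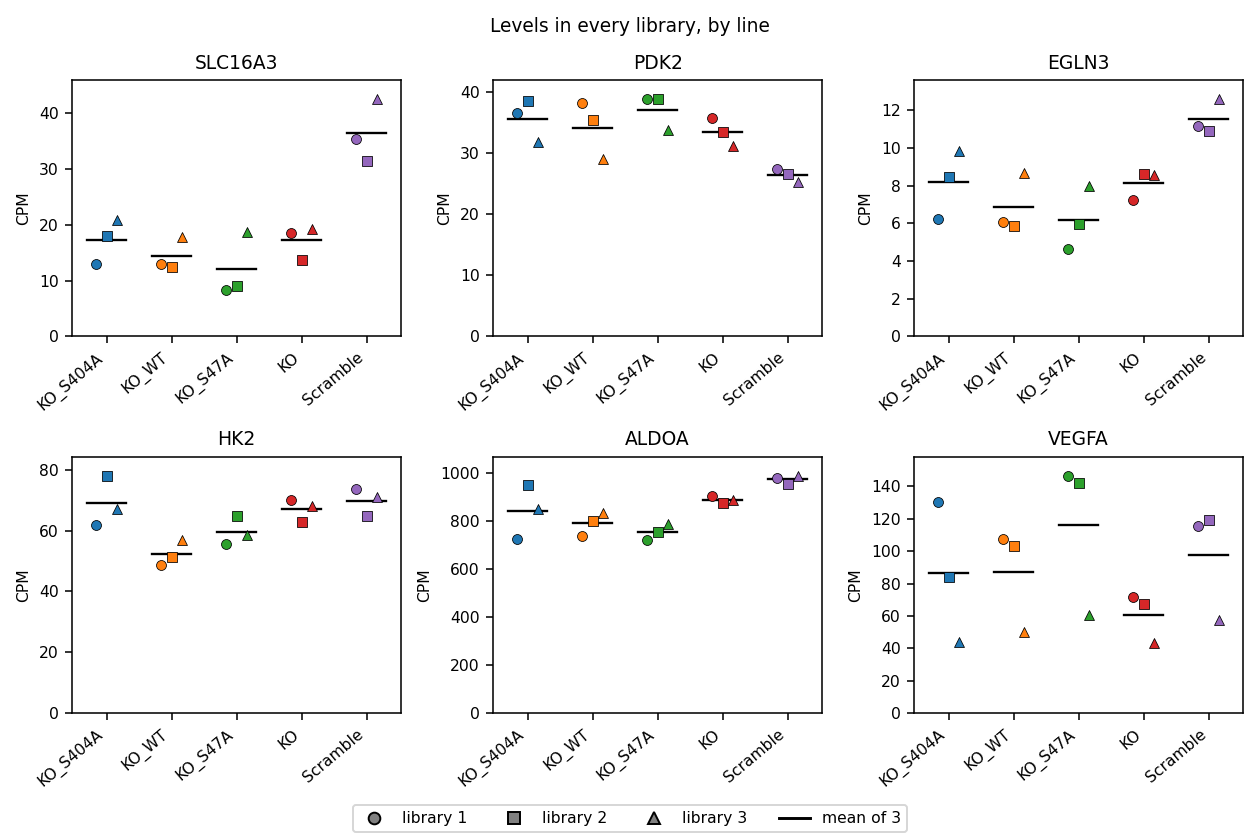
CPM of 6 members in every library, by line, with symbols for the library number and a line at the mean of 3. SLC16A3, EGLN3 and ALDOA are lower and PDK2 is higher in all 12 libraries with the knockout than in the 3 Scramble libraries. The share of all genes with such a separation was not counted. HK2 is lowest in KO_WT, and VEGFA is lowest in the library numbered 3 of each line.

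Across the comparisons with Scramble, edgeR called 0 of 38 members in KO_S404A, against 3.11% of all genes. An unadjusted p under 0.05 was found there for 9 of the 38 members and for 15.7% of all genes. DESeq2 called 2, SLC16A3 and PDK2, and 6.28% of all genes. In KO_WT edgeR called 2 members (5.26%, against 3.47% of all genes), both lower, and in KO_S47A it called 4 (10.5%, against 3.82%), 1 higher and 3 lower. With the block the counts were 8 in KO_WT (21.1%, against 10.0% of all genes) and 14 in KO_S47A (36.8%, against 19.5%). The 8 in KO_WT were ALDOA, EGLN3, HK2, PDK3, PFKFB2 and SLC16A3, lower, and BNIP3L and PDK2, higher. The 14 in KO_S47A were BNIP3L and PDK2, higher, and GPI, PFKFB3, ALDOA, PGAM1, ENO1, PKM2, LDHA, LDHB, SLC16A3, PDK3, PDHA1 and EGLN3, lower. The 16 glycolytic enzymes had a median log2 fold change of −0.13 in KO_S404A, −0.20 in KO_WT and −0.25 in KO_S47A, each minus Scramble, with 12, 15 and 16 of them below 0, against a median over all genes of 0.03, 0.01 and 0.02.

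The comparisons of the added-back lines with KO ask which levels an ATGL protein changed, and share the KO libraries. Without the block edgeR called 0 of 38 members in each of them, as did DESeq2. All genes were called at 0.0211% in KO_S404A, 0.0281% in KO_WT and 0.00702% in KO_S47A, each minus KO. In the same order 0, 3 and 9 of the 38 members had an unadjusted p under 0.05, as did 4.08%, 7.58% and 16.8% of all genes. The 16 glycolytic enzymes had a median log2 fold change of −0.10 in KO_S404A, −0.22 in KO_WT and −0.26 in KO_S47A, each minus KO, with 12, 15 and 14 of them below 0, against a median over all genes of 0.01, 0.00 and 0.01. The 3 libraries did not overlap for 2 members in KO_S404A minus KO, 8 in KO_WT minus KO and 14 in KO_S47A minus KO (5.26%, 21.1% and 36.8%, against 6.84%, 15.5% and 21.9% of all genes).

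In KO_S47A minus KO the count of members depended on how the library numbers were treated. With the replicate block 14 of 38 members were called (36.8%), against 22.1% of all genes, and from libraries 1 and 2 alone 15 were called, against 21.6%. Lower in KO_S47A were 12 (11.5% of all genes were lower), the glycolytic genes PFKP, TPI1, GAPDH, PGAM1, ENO1, PKM2, LDHA and LDHB, together with PFKFB3, SLC16A3, PDK3 and EGLN3. VEGFA and BNIP3L were higher (10.6% of all genes were). In KO_WT minus KO the block called 0 members, against 0.105% of all genes. Whether KO_S47A and KO_WT differed was tested directly, and edgeR called 0 members between them with or without the block, against 0.0% and 0.0211% of all genes, so the larger count in KO_S47A does not show a difference between the wild-type and the S47A protein.

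LDHA, the subunit that favours lactate production, stood at 462, 644 and 949 CPM in KO_S404A, 573, 632 and 937 in KO_WT, 459.6, 458 and 882 in KO_S47A, 755, 855 and 1077 in KO, and 863, 697 and 1068 in Scramble. The library numbered 3 was the highest of every line, and KO_S47A 1 and 2 were the lowest of all with KO_S404A 1. The log2 fold change in KO_S47A minus KO was −0.58 (SE 0.30, edgeR adjusted p = 0.328, and 0.00638 with the block). In KO minus Scramble it was 0.03 (SE 0.30). Per kilobase, LDHA made up 31.3% ± 5.20 of lactate dehydrogenase transcripts in KO_S404A, 31.3% ± 4.22 in KO_WT, 28.6% ± 4.26 in KO_S47A, 34.0% ± 1.67 in KO and 33.1% ± 3.22 in Scramble (SD, n = 3 each), and the lines overlapped.

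PFKFB3 makes fructose 2,6-bisphosphate, the strongest activator of phosphofructokinase. It stood at 13.9, 19.5 and 25.7 CPM in KO_S404A, 14.5, 17.4 and 22.6 in KO_WT, 14.8, 14.5 and 20.3 in KO_S47A, 22.3, 22.4 and 25.0 in KO, and 20.6, 17.6 and 29.7 in Scramble. All 3 KO_S47A libraries were below the 3 KO libraries, at a log2 fold change of −0.49 (SE 0.24, edgeR adjusted p = 0.311, and 0.0132 with the block). Of its relatives, PFKFB2 averaged 36.2 CPM in KO_S404A, 32.9 in KO_WT, 35.5 in KO_S47A, 34.9 in KO and 40.3 in Scramble, and PFKFB4 between 8.41 CPM in KO_WT and 9.75 in KO_S47A. The upper enzymes GPI, which isomerises glucose 6-phosphate, and HK1, the constitutive hexokinase, had log2 fold changes of −0.26 each in KO_S47A minus KO, with edgeR adjusted p of 0.277 and 0.306.

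Among the hypoxia genes, VEGFA, the endothelial growth factor, stood at 131, 84.0 and 44.1 CPM in KO_S404A, 107.5, 103 and 50.3 in KO_WT, 147, 142 and 60.3 in KO_S47A, 71.7, 67.1 and 43.0 in KO, and 116, 119.5 and 57.5 in Scramble. The library numbered 3 was the lowest of every line, and within each number KO was below every other line. In KO minus Scramble the log2 fold change was −0.69 (SE 0.43, edgeR adjusted p = 0.598, and 0.00645 with the block). In KO_S47A minus KO it was 0.94 (SE 0.44, edgeR adjusted p = 0.297, and 0.00307 with the block).

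BNIP3L, a mitophagy receptor, stood at 139, 104 and 98.0 CPM in KO_S404A, 151, 132 and 105 in KO_WT, 149.6, 152 and 113 in KO_S47A, 109.1, 115 and 102 in KO, and 109.3, 107 and 79.7 in Scramble. The KO_S47A libraries were above the Scramble libraries, at a log2 fold change of 0.49 (SE 0.17, edgeR adjusted p = 0.142, and 0.0032 with the block). ANKRD37, an ankyrin repeat protein gene induced by HIF-1, stood at 2.46, 1.61 and 1.54 CPM in KO_S404A, 2.76, 2.80 and 2.11 in KO_WT, 3.67, 2.79 and 2.78 in KO_S47A, 1.44, 2.05 and 2.39 in KO, and 2.83, 2.36 and 3.01 in Scramble. All KO_S47A libraries were above all KO libraries, at a log2 fold change of 0.65 (SE 0.24, edgeR adjusted p = 0.274). BNIP3, the relative of BNIP3L, averaged between 229 CPM in KO and 264 CPM in Scramble.

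HIF1A encodes the oxygen-regulated subunit of HIF-1, which is controlled mainly at the protein level. It stood at 110.4, 139 and 132 CPM in KO_S404A, 115, 118 and 132 in KO_WT, 114, 116 and 128 in KO_S47A, 152, 130.3 and 141 in KO, and 113, 121 and 117 in Scramble. All 3 KO libraries were above the 3 Scramble libraries, at a log2 fold change of 0.27 (SE 0.10, edgeR adjusted p = 0.24, and 0.0805 with the block). In the same comparison, of the members grouped here as hypoxia targets, EGLN3, VEGFA, ANKRD37 and BNIP3 had log2 fold changes of −0.50, −0.69, −0.48 and −0.20. BNIP3L had one of 0.14. None of them was called without the block. The low-count ADM and CA9 and the HIF-1 targets grouped under other roles are not in this list.

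Between the added proteins edgeR called 0 of 38 members. All genes were called at 0.0% in KO_S404A minus KO_WT, 0.00702% in KO_S404A minus KO_S47A and 0.0% in KO_WT minus KO_S47A. Members with an unadjusted p under 0.05 numbered 1, 3 and 0 of 38, against 8.7%, 6.59% and 2.17% of all genes. DESeq2 also called 0 members in each, as did the block, which called 0.0%, 0.014% and 0.0211% of all genes. For LDHA the 95% interval of KO_WT minus KO_S47A ran from −0.40 to 0.90 on the log2 scale, so a difference of that size was not detectable here. Over the members and the 10 comparisons, the 95% interval had a median half-width of 0.30 on the log2 scale.

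**Figure D4:**
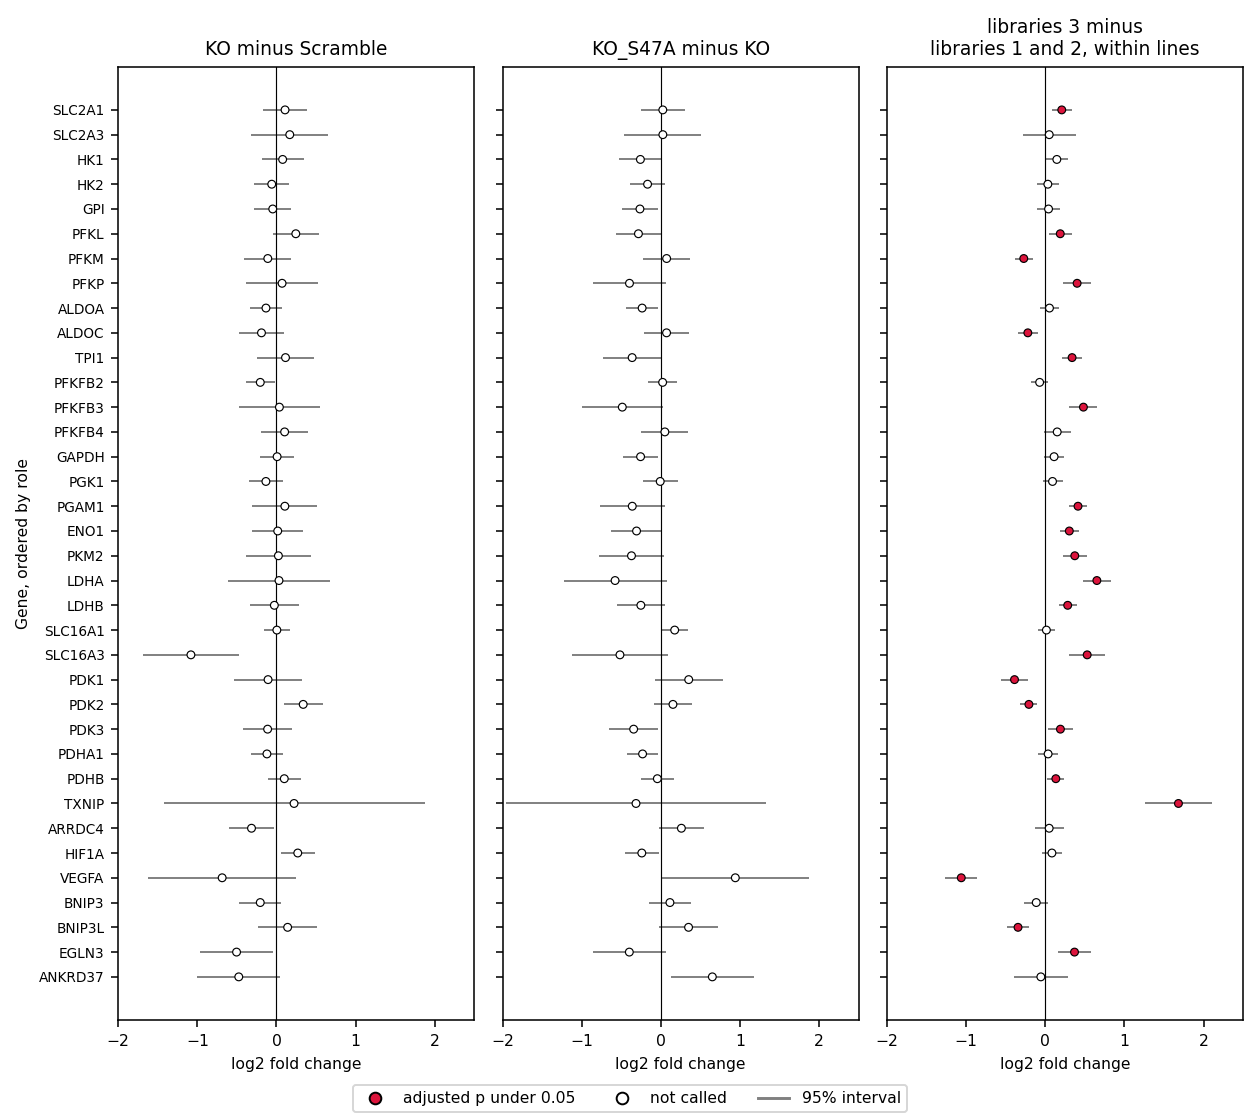
Log2 fold change of 36 members with 95% intervals in KO minus Scramble, in KO_S47A minus KO and in the libraries numbered 3 minus those numbered 1 and 2 within lines, from edgeR without the block, with called members filled. No member is filled in the line comparisons, and most of the lower glycolytic genes are filled to the right of 0 in the comparison of library numbers.

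More members were called between library numbers than between any pair of lines. Within lines, 22 of 38 members were called between the libraries numbered 3 and those numbered 1 and 2 (57.9%, against 46.1% of all genes). Of these 15 were higher and 7 lower, against 22.4% and 23.7% of all genes. The 16 glycolytic enzymes had a median log2 difference of 0.17, against −0.02 over all genes, with 8 higher and 2 lower. LDHA rose by 0.65 (SE 0.09), PGAM1, the phosphoglycerate mutase, by 0.41 (SE 0.06), PFKP, the platelet-type phosphofructokinase, by 0.40 (SE 0.08), PKM2 by 0.37 (SE 0.07), TPI1 by 0.34 (SE 0.06) and ENO1 by 0.30 (SE 0.06). LDHB (0.28), PFKL (0.19), SLC2A1 (0.21), PFKFB3 (0.48), SLC16A3 (0.53), EGLN3 (0.37), PDK3 (0.19) and PDHB (0.13) also rose, with edgeR adjusted p of 0.0494 at most. PFKM (−0.27), the muscle-type phosphofructokinase, and ALDOC (−0.22), the brain-type aldolase, fell, as did PDK1 (−0.39), PDK2 (−0.21), BNIP3L (−0.34) and the low-count PDK4.

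TXNIP encodes an alpha-arrestin that binds thioredoxin, restrains glucose uptake and is induced by glucose through MondoA and ChREBP. It stood at 3.33, 3.33 and 14.1 CPM in KO_S404A, 2.41, 2.68 and 14.4 in KO_WT, 3.69, 4.48 and 5.77 in KO_S47A, 4.01, 3.42 and 9.89 in KO, and 3.78, 1.88 and 9.15 in Scramble. All 5 libraries numbered 3 were above all 10 others. It rose by 1.68 on the log2 scale (SE 0.20, edgeR adjusted p = 5.43e-06), a level 3.21 times that of libraries 1 and 2. ARRDC4, the alpha-arrestin most related to it and another MondoA target, had a log2 difference of 0.05 (SE 0.09, edgeR adjusted p = 0.675). VEGFA fell by 1.06 on the log2 scale (SE 0.10, edgeR adjusted p = 5.75e-07), with all 5 libraries numbered 3 at 43.0 to 60.3 CPM and the 10 others at 67.1 to 147 CPM. Such a separation of 5 libraries from 10 was found in 4 of 38 members (10.5%). The share of all genes with it is not given here. The glucose transporter SLC2A1 ran from 86.0 to 104 CPM in the libraries numbered 3 and from 70.6 to 93.0 CPM in the others.

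Of the variance of log2 CPM over the 15 libraries, the line means took a median of 39.5% and the library number within lines 22.3% over the 38 members, against 36.3% and 21.5% over all genes. The number took more than the line in 16 members (42.1%), against 37.2% of all genes. For TXNIP the number took 79.0% and the line 2.83%, and for VEGFA 70.1% and 23.3%. The line took 76.4% for SLC16A3, 72.7% for HK2, 71.1% for ALDOA and 70.4% for PDK2. These shares describe the libraries, and only 1 line stands for each genotype.

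**Figure D5:**
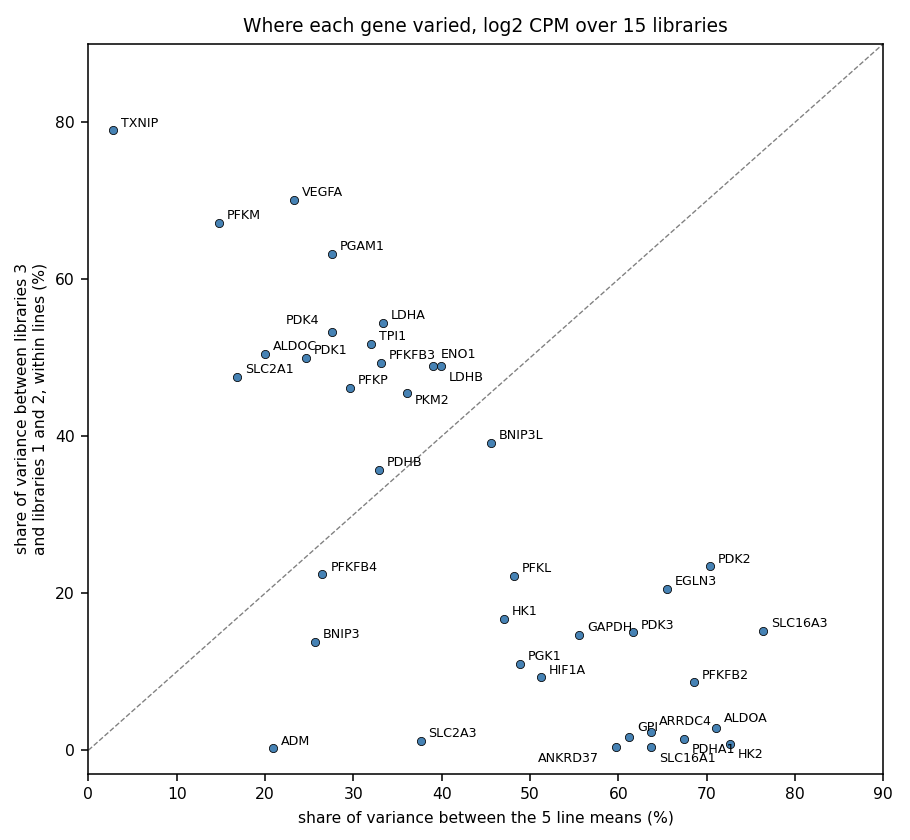
Share of each member's variance of log2 CPM over 15 libraries that lies between the 5 line means (x axis, percent) and between the libraries numbered 3 and those numbered 1 and 2 within lines (y axis, percent), for 38 members. TXNIP, VEGFA, PFKM and PGAM1 lie above the dashed line of equal shares, SLC16A3, HK2, ALDOA and PDK2 far below it. The x axis rests on 5 line means and the y axis on 1 contrast, so equal shares do not mean equal strength.

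Other genes of the same pathways were counted from lists. Against Scramble, edgeR without the block called 3.11% of all genes in KO_S404A, 3.47% in KO_WT, 3.82% in KO_S47A and 2.69% in KO. Of 33 tested further genes of glycolysis, sugar and monocarboxylate transport, KO_S404A, KO_WT and KO each had 1 called higher and 1 lower than in Scramble, and KO_S47A had 0 higher and 1 lower. PGM1, a phosphoglucomutase that links glycogen with glycolysis, fell in all 4, by 1.12 on the log2 scale in KO_S404A, 1.10 in KO_WT, 0.75 in KO_S47A and 1.16 in KO (edgeR adjusted p of 0.0274 at most). It averaged 8.26 ± 0.77 CPM in KO_S404A, 8.35 ± 1.57 in KO_WT, 10.7 ± 1.74 in KO_S47A, 7.99 ± 1.42 in KO and 17.9 ± 1.53 in Scramble (SD, n = 3 each). SLC16A7, the high-affinity transporter MCT2, rose in KO_S404A, KO_WT and KO, with log2 fold changes of 0.67, 0.74 and 0.57.

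Of 37 further hypoxia genes, 1 was lower in KO_S404A, KO_WT and KO, and in KO_S47A 2 were lower and 1 higher, each minus Scramble. PLOD2, a collagen lysyl hydroxylase induced by HIF-1, was lower in all 4, at 0.577 CPM in KO_S404A, 0.396 in KO_WT, 0.296 in KO_S47A and 0.340 in KO, against 2.71 in Scramble (edgeR adjusted p of 0.0279 at most). In KO_S47A the carbonic anhydrase CA12 was also lower and the ubiquitin ligase adaptor WSB1 higher. Of 10 genes of glucose sensing and the thioredoxins, 1 was lower in all 4 comparisons, the mitochondrial thioredoxin TXN2 at log2 fold changes of −0.44 to −0.49. TXN2 lies on chromosome 22, whose tested genes had a median log2 fold change of −0.28 in KO_S404A, −0.38 in KO_WT, −0.33 in KO_S47A and −0.32 in KO, each minus Scramble, and the part of that shift in TXN2 was not tested. Of the 39 members 0 lie on chromosome 22. Without the block, edgeR called 0 genes of these 3 lists between an added-back line and KO, or between added-back lines. With the block it called genes of each list in KO_S47A minus KO, where 22.1% of all genes were called. They were 6 higher and 5 lower of the 33 glycolysis and transport genes, 7 higher and 5 lower of the 37 hypoxia genes, and the alpha-arrestin ARRDC3, higher, of the 10 glucose sensing genes. In the other comparisons among KO and the added-back lines the block called 0 of them. Against Scramble the block called 19.5% of all genes in KO_S47A, 10.0% in KO_WT and 8.29% in KO. Of the 33 glycolysis and transport genes it called 1 higher and 6 lower in KO_S47A, 2 and 1 in KO_WT, and 1 and 2 in KO. Of the 37 hypoxia genes it called 3 higher and 6 lower in KO_S47A, and 1 and 4 in both KO_WT and KO. Of the 10 glucose sensing genes it called 2 higher and 2 lower in KO_S47A, 1 and 2 in KO_WT, and 0 and 2 in KO.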

How the data were processed

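Poly(A) RNA from 5 lines of C4-2 cells was sequenced in 3 libraries each. The authors deposited whole-number read counts per gene, not normalized, which the tests used, and FPKM values, which served only to give gene lengths (FPKM computed anew from counts and these lengths differed by a relative 1.45e-13 or less). The submitters' processing notes name CASAVA and STAR. No source used here gives the genome build, the annotation or the strandedness of counting, so overlapping and antisense genes cannot be told apart. Unassigned reads, 13.2% to 20.6% of a library, were left out.

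Counts were filtered with filterByExpr, scaled by TMM and fitted with edgeR 4.0.16 in R 4.3.3, as a quasi-likelihood model of all 15 libraries with 1 mean per line and 10 residual degrees of freedom. The 10 comparisons between lines were tested over 14246 genes, with Benjamini-Hochberg adjustment over all genes of each and calls at adjusted p under 0.05. The libraries numbered 3 were compared with those numbered 1 and 2 in a model with the line as a term. SE was approximated from the size of the log2 fold change and the square root of its F value. Levels per kilobase are CPM divided by the implied length. Tested on counts simulated for KO minus Scramble (14111 genes), the model called 74 of 100 genes changed 2-fold, 97 of 100 changed 4-fold and 6 unchanged genes. The simulated libraries were drawn independently, with no shift shared by the libraries numbered 3, unlike the data. Alternatives were a replicate block, DESeq2 1.42.0, its size factors, no filter, the compared lines alone, the libraries numbered 1 and 2 alone, and leaving out each library. The block was fitted on all 15 libraries. As a check of pairing, deviations from the line means were correlated between same-numbered libraries, which no label pairs. An r of at least 0.1 for every number was taken as passing. In 8 comparisons r was at least 0.111 for every number. KO_S404A against KO and against Scramble were the exceptions (r as low as 0.0246). Deviations cancel within a line, so the shift of the libraries numbered 3 also enters r for numbers 1 and 2. Pairing of numbers 1 and 2 apart from that shift was not tested. Replicates of a line differed by more than sampling noise (chi-square per degree of freedom 8.11 to 239).

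The members and gene lists were chosen with earlier results of these data known. Values in every library were given for members called between lines and then, up to 12 members, for those with the widest range of line means. HIF1A and TXNIP were added after their values were seen. Of the other pathway genes, those called between lines are named, at most 10. A gene of these lists is not reported here and was left out of their counts. Motifs were searched in the 250 bases before each RefSeq start.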

Additional observations from a re-analysis of the deposited data

How the results depend on the processing

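All counts are of members called at adjusted p under 0.05. With the replicate block the count was 4 in KO minus Scramble, 14 in KO_S47A minus KO, 8 in KO_WT minus Scramble and 14 in KO_S47A minus Scramble, against 0, 0, 2 and 4 without it. In KO_S404A minus Scramble, where the numbers did not pair the libraries by the check used, the block gave 5 (10.7% of all genes), EGLN3, LDHB, PDK3 and SLC16A3 lower and PDK2 higher, against 0. The block changed no other count of members. DESeq2 called 1 in KO minus Scramble (4.86% of all genes), 5 in KO_WT minus Scramble (6.09%) and 2 in KO_S404A minus Scramble (6.28%). Fitting the compared lines alone gave 1 in KO minus Scramble (3.06%), 1 in KO_WT minus Scramble (2.52%) and 0 in KO_S47A minus Scramble (2.15%). Libraries 1 and 2 alone gave 2 in KO minus Scramble (5.37%), 15 in KO_S47A minus KO (21.6%), 8 in KO_S47A minus Scramble (15.0%) and 2 in KO_S404A minus Scramble (6.84%). Leaving out 1 library at a time gave 0 to 4 in KO_WT minus Scramble (1.65% to 3.04% of all genes) and 1 to 6 in KO_S47A minus Scramble (1.62% to 6.78%). It gave 0 to 1 in KO_S404A minus Scramble (1.65% to 2.59%) and 0 in the other line comparisons. Leaving out 1 line gave 17 to 20 between library numbers (36.7% to 45.6% of all genes). The causes were not tested, beyond that fewer libraries enter the last 3 kinds of fit. Size factors of DESeq2 and no filter on low counts kept each member count within 1.5 times. No member changed direction against a called value.

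Over all genes, KO_S47A minus KO gave 1 call, against 3150 with the block, 3098 from libraries 1 and 2 alone and 33 by DESeq2. KO minus Scramble gave 383, against 1181 with the block, 693 by DESeq2 and 770 from libraries 1 and 2 alone. Leaving out 1 library gave 205 to 291 calls in KO minus Scramble and 234 to 984 in KO_S47A minus Scramble, where the count was 544. With 3 libraries per line, a member's 95% interval had a median half-width of about 0.30 on the log2 scale. Differences under that were mostly not detectable. The interval is not adjusted for testing all genes, as the calls were, so larger differences could also go uncalled. Of 100 genes changed 2-fold in the simulation, 74 were called. It held no shift shared by the libraries numbered 3, so the rate in these data could differ.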
